A study of Mus musculus with 10 samples.

Results

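Perilipins are the coat proteins of cytosolic lipid droplets, and the 10 genes described here encode the perilipins (Plin1, Plin2, Plin3, Plin4 and Plin5) and the proteins that carry out or control breakdown of the stored triglyceride (Pnpla2, G0s2, Abhd5, Lipe and Mgll). The genes were taken by symbol from a deposited table of 15883 genes, all 10 were found, and all 10 were among the 13338 genes that passed the filter on low counts. The RNA came from biceps femoris, a muscle of the hindlimb, of 5 wild-type mice and 5 mice carrying a Zfp407 transgene, which encodes a zinc finger protein. Every mouse was a male on the C57BL/6J background, 5 weeks old, fed normal chow and then fasted for 16 hours, so both groups show the fasted state. The sources used here do not give the promoter that drives the transgene or the number of founder lines. Libraries are called by genotype and column number, and a shared number pairs no mice. The 10 genes were chosen by symbol with the difference in RNA between the genotypes already known, so their fold changes, adjusted p-values and calls between genotypes are given as a description.

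In textbook accounts, triglyceride in a droplet is cleaved in 3 steps. Pnpla2 (adipose triglyceride lipase) removes the first fatty acid, with Abhd5 (CGI-58) as its activator and G0s2 as its inhibitor. Lipe (hormone-sensitive lipase) acts on the diglyceride, and Mgll (monoglyceride lipase) releases the glycerol. Perilipins limit or route the access of these enzymes to the droplet: Plin1 is the coat of the adipocyte droplet and holds Abhd5 until it is phosphorylated, Plin5 marks oxidative tissues and links droplets to mitochondria, Plin4 is abundant in fat and muscle, and Plin2 and Plin3 (formerly TIP47) are made in most tissues. Fasted muscle takes up fatty acids from the circulation, stores part of them in droplets and oxidises them.

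The sequences shown first are the promoters of Plin3 and Plin2, the members whose RNA stood furthest apart between genotypes. They come from RefSeq on GRCm38.p6, run 5′ to 3′ on the gene's own strand and contain no annotated exon. Positions below are counted back from the RefSeq start. The Plin3 window is chr17:56290512-56290761 on the minus strand and spans 250 bases. Its RefSeq start lies inside the longer GENCODE span of the gene. The Plin2 window is chr4:86670061-86670309 on the minus strand and spans 249 bases, since the base next to the RefSeq start lies in an exon in GENCODE and is left out. Capitals mark exact matches, on either strand, to GGGCGG (the GC box, bound by Sp factors), CCAAT (bound by the factor NF-Y) or AGGTCA (a nuclear receptor half-site, such as PPARs use in pairs).
Plin3: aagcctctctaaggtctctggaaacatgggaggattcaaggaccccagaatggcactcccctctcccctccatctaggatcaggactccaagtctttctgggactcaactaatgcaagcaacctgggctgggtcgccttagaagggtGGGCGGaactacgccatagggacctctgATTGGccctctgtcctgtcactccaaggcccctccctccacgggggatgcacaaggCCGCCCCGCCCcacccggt
Plin2: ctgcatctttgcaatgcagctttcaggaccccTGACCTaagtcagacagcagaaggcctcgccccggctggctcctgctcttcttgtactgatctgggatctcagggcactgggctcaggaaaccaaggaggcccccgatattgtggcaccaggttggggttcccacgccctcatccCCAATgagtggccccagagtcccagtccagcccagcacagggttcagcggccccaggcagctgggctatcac
The Plin3 window held 3 GC boxes, at 103, 19 and 14 bases before the start, where the last 2 are reversed and share 1 base, and a reversed CCAAT box at 75 bases. The Plin2 window held a CCAAT box at 73 bases and a reversed AGGTCA at 218 bases, and no GC box. RefSeq gave 13 windows for the 10 members, since Lipe, Mgll and Plin5 have 2 each, and a gene was counted when any of its windows matched. Counted in the same way over 27025 mouse genes (32851 windows of 250 bases), 35.4% of genes held GGGCGG, 37.5% CCAAT and 15.8% AGGTCA. Of the 10 members 7 held GGGCGG (Plin3, Plin5, Pnpla2, G0s2, Abhd5, Lipe and Mgll), while CCAAT occurred in 4 (Plin2, Plin3, Plin4 and Plin5) and AGGTCA in 3 (Plin2, Plin5 and Abhd5). The E-box CACGTG (6.86% of genes) occurred in Lipe and Mgll, the cAMP half-site TGACG (19.8%) in G0s2 and Abhd5, and TATAAA (14.3%) in none of the 10. These are matches of letters, and the data hold no measure of binding.

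Depth and tissue bear on all values. Each library held 13530367 to 19047834 counts over genes. Of these, 3 genes (Lars2, Gm15564 and Gm15662) took 14.3% to 33.9% in wild-type and 9.62% to 17.3% in transgenic libraries. The factors that scale libraries for composition (TMM) did not overlap, at 0.814 to 1.012 in wild-type and 1.022 to 1.162 in transgenic libraries. Without the 3 genes, the log2 difference was -1.67 for Plin3 (edgeR adjusted p = 3.36e-05) and 0.77 for Plin2 (edgeR adjusted p = 0.0167). The lowest raw count of a member in a library was 17 and the highest 9089. Zfp407 checked the genotype labels: it lay at 21.0 to 25.7 CPM (counts scaled to a common library size, with TMM factors for composition) in wild-type libraries and at 317 to 616 CPM in transgenic libraries. Fast-fibre and general muscle transcripts, led by Myh4 and Acta1, summed to 91330 to 121900 CPM in wild-type and 85670 to 128400 CPM in transgenic libraries, the highest being transgenic library 3. Summed hepatocyte transcripts did not overlap: 20 markers summed to 177 to 289 CPM in wild-type and 565 to 6559 CPM in transgenic libraries, with library 5 highest, and 19 of the 20 were called higher. The exception was Cyp2e1, at 41.4 to 204 CPM in wild-type and 54.7 to 281 CPM in transgenic libraries. In wild-type library 1, Cyp2e1 gave 204 of the 289 CPM summed. Leukocyte transcripts ran from 82.5 to 166 CPM and from 88.8 to 255 CPM, highest in transgenic libraries 1 and 2. Hepatocyte and leukocyte genes are not fibre markers, and their part in each result below was not tested except where a value with the list as a covariate or without a library is given.

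In wild-type muscle, Plin4 and Pnpla2 RNA stood above the rest. Per kilobase of exon, which allows genes to be compared, Plin4 averaged 89.9 ± 20.04 CPM per kb (SD, n = 5) and Pnpla2 53.7 ± 13.5, and their ranges overlapped. Plin5 followed at 12.8 ± 2.81 CPM per kb, 4.195-fold under Pnpla2 with no overlap, and 1.58-fold above Plin3, again with no overlap. Below it came Plin3 (8.09 ± 0.945), Mgll (7.25 ± 1.81), Plin2 (6.05 ± 1.46), Lipe (4.32 ± 1.69), G0s2 (3.84 ± 2.03), Abhd5 (3.06 ± 0.450) and Plin1 (2.12 ± 1.64). From Plin3 down, each gene's range overlapped that of the next. The lipase of the first step was thus the most abundant of the 3 lipases per length, and the RNAs of its activator and of its inhibitor were far below it.

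**Figure D1:**
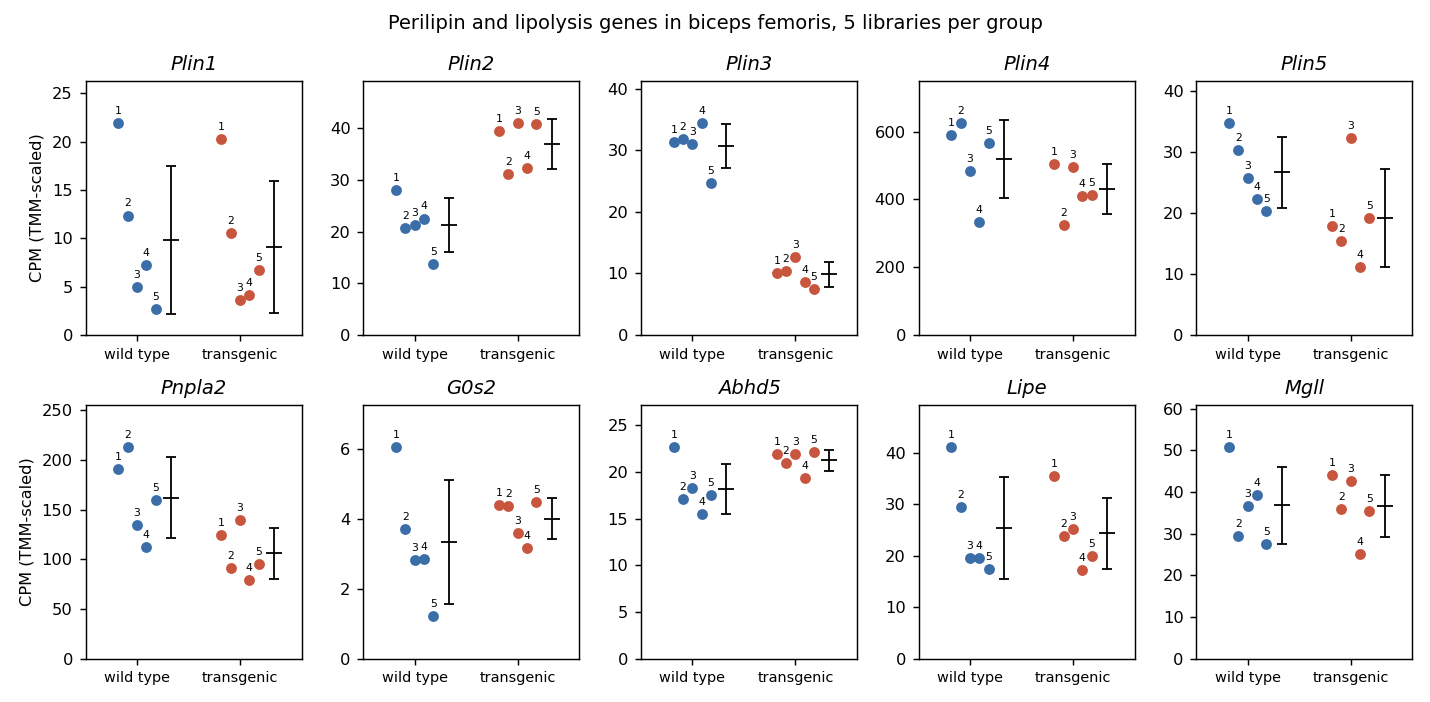
TMM-scaled CPM (vertical axes, each from 0) of the 10 members, with 1 numbered point per library and, beside each group, its mean ± SD. Plin3 lies at 24.7 to 34.4 CPM in wild type and 7.46 to 12.7 CPM in transgenic libraries and Plin2 at 13.7 to 28.0 and 31.1 to 40.9 CPM, while the other 8 members overlap.

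Plin3 RNA was lower in every transgenic library. Wild-type libraries 1 to 5 gave 31.4, 31.9, 31.0, 34.4 and 24.7 CPM, and transgenic libraries 1 to 5 gave 10.1, 10.3, 12.7, 8.602 and 7.46 CPM. The groups lay far apart, with wild-type library 5 the lowest of its group and transgenic library 3 the highest of its group. The group means were 30.6 ± 3.58 and 9.84 ± 1.96 CPM (SD, n = 5 each), a log2 difference of -1.64 ± 0.14 (SE) with a 95% interval from -1.95 to -1.33 and an edgeR adjusted p of 3.50e-05. By size, this was the eighth of the 140 falls called. In bulk muscle, fewer cells of a type and less RNA per cell cannot be told apart. Plin3 binds nascent droplets from the cytosol and is known from many tissues. With the hepatocyte list as a covariate its log2 difference was -1.17 ± 0.21 (edgeR adjusted p = 0.0256), and with the adipocyte list -1.64 ± 0.15 (edgeR adjusted p = 4.30e-05).

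Plin2 RNA was higher in every transgenic library. The wild-type values were 28.0, 20.8, 21.3, 22.5 and 13.7 CPM, and the transgenic values 39.4, 31.1, 40.9, 32.2 and 40.8 CPM. Wild-type library 1 came closest to the transgenic range and wild-type library 5 was lowest. The means were 21.3 ± 5.14 and 36.9 ± 4.83 CPM (SD, n = 5 each), a log2 difference of 0.79 ± 0.17 (95% interval 0.43 to 1.15, edgeR adjusted p = 0.0137), or 1.73-fold. Plin2 protein is stabilised by stored neutral lipid, which RNA does not show. Its call was lost without wild-type library 3 (log2 difference 0.76, edgeR adjusted p = 0.0507) and with the hepatocyte list as a covariate (0.90 ± 0.29, edgeR adjusted p = 0.210). That list separated the groups completely, so it and the genotype cannot be told apart in this design.

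Plin2 and Plin3 were the 2 members called, 1 in each direction, and the 2 whose groups did not overlap. Over all 13338 genes tested, 5.33% were called by edgeR at an adjusted p under 0.05 (4.28% higher and 1.05% lower in transgenic muscle), and 8.04% did not overlap between groups in CPM. An unadjusted edgeR p under 0.05 was found for 18.1% of them, and DESeq2 called 7.74% of the 15882 genes it tested. The members' median log2 difference was -0.08 and that of all tested genes 0.003. Because the genes were chosen with this contrast known, the counts are not read against those shares.

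**Figure D2:**
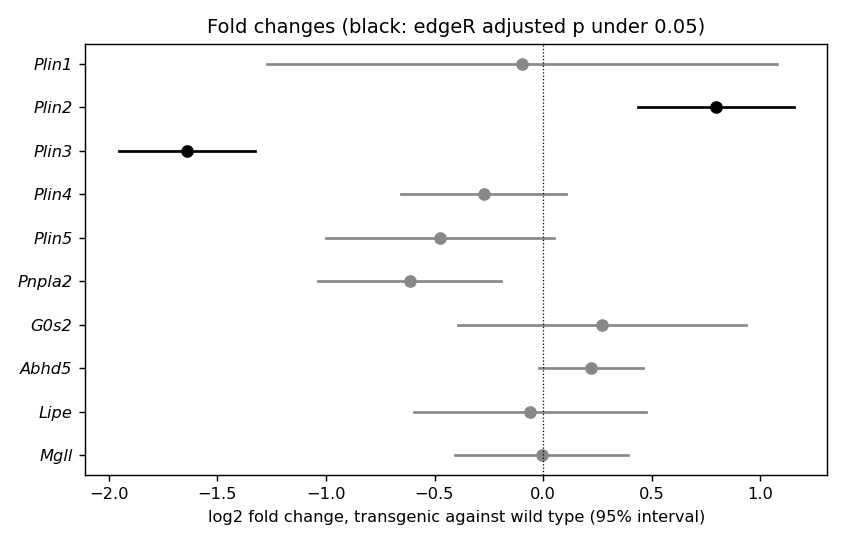
Log2 difference of transgenic minus wild type for each member, with 95% intervals of the edgeR fit as lines and called genes in black. Plin3 at -1.64 and Plin2 at 0.79 are the members called, Pnpla2 (-0.61) and Plin5 (-0.48) follow among the lower values, and Lipe and Mgll lie near 0.

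The other perilipins did not pass the threshold. Plin5, the coat of oxidative tissues, gave 34.7, 30.3, 25.7, 22.3 and 20.4 CPM in wild-type and 17.9, 15.4, 32.4, 11.2 and 19.2 CPM in transgenic libraries. In 4 of 5 transgenic libraries Plin5 lay under all wild-type values, and transgenic library 3 lay above 4 of them. The log2 difference was -0.48 ± 0.24 (95% interval -1.001 to 0.05, edgeR adjusted p = 0.326). Without transgenic library 3, which also had the highest summed fast-fibre and muscle transcripts, it was -0.75 (edgeR adjusted p = 0.0313), and with the hepatocyte covariate -0.09. Leaving out transgenic library 3 was the 1 alternative of 22 in which Plin5 was called.

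Plin4, the most abundant perilipin here, ran from 334 to 624 CPM in wild-type and from 325 to 506 CPM in transgenic libraries, with a log2 difference of -0.27 ± 0.18 (edgeR adjusted p = 0.460). Exons of Plin4 overlap those of Hdgfl2 on the opposite strand and the use of strand in counting is not known here. Plin1, the adipocyte coat, gave 21.9, 12.4, 5.00, 7.22 and 2.67 CPM in wild-type and 20.3, 10.6, 3.67, 4.16 and 6.69 CPM in transgenic libraries. Library 1 was highest in both groups, and the spread within each far exceeded the difference between them. Its log2 difference was -0.10 ± 0.54, with a 95% interval from -1.27 to 1.07, which spans more than 2-fold either way.

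As a share of the summed perilipin level (CPM per kb), Plin4 made up 75.2% ± 5.50 (SD, n = 5) in wild-type and 75.4% ± 2.98 in transgenic muscle. Plin3 held 7.08% ± 2.09 (range 5.49% to 10.6%) in wild-type and 2.67% ± 0.558 (2.06% to 3.52%) in transgenic libraries. Plin2 held 5.23% ± 1.601 (3.27% to 7.50%) and 10.7% ± 1.02 (9.81% to 12.2%). The order of Plin3 and Plin2 turned: Plin3 lay above Plin2 per kilobase in 5 of 5 wild-type libraries and below it in 5 of 5 transgenic libraries. The ratio of Plin3 to Plin2 ran from 1.04 to 1.68 (median 1.42) in wild type and from 0.170 to 0.309 (median 0.248) in transgenic muscle. Without Plin4, Plin5 had the highest mean share in wild type (44.1% ± 3.32) and Plin2 in transgenic libraries (44.1% ± 5.75, beside 36.9% ± 7.66 for Plin5). Plin5 has the shortest exon length of the 5, and without division by length its wild-type share of all perilipins was 4.45%, under the 5.29% of Plin3. These shares restate the differences of Plin2 and Plin3, since a share falls where another rises.

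**Figure D3:**
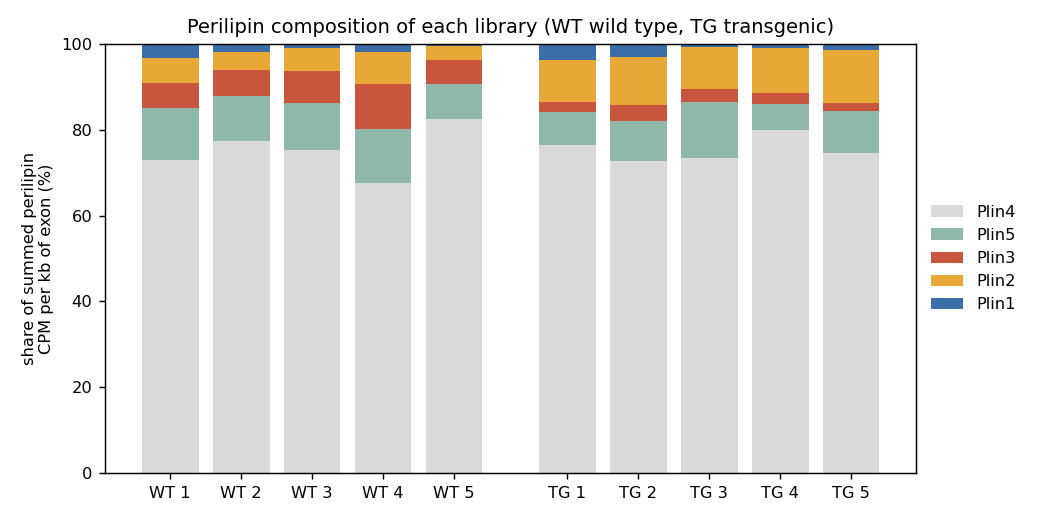
Stacked bars of the share of each perilipin in the summed perilipin level (percent of CPM per kb of exon), 1 bar per library. Plin4 holds 67.6% to 82.5% in each of the 10 libraries, Plin3 drops from a mean of 7.08% to 2.67% and Plin2 goes from 5.23% to 10.7%.

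Of the 5 lipolytic genes none was called by edgeR, 1 had an unadjusted p under 0.05 (18.1% of all tested genes), and DESeq2 called that gene, Pnpla2 (7.74% of all genes). Pnpla2 gave 190.8, 213, 134, 112 and 159.8 CPM in wild-type and 124, 91.3, 139.9, 78.8 and 95.2 CPM in transgenic libraries. In 3 of 5 transgenic libraries it lay under every wild-type value. The means were 162 ± 40.7 and 106 ± 25.3 CPM, a log2 difference of -0.61 ± 0.20 (95% interval -1.04 to -0.19, edgeR adjusted p = 0.0960), and DESeq2 gave -0.62 with an adjusted p of 0.0348. The value without transgenic library 3 was -0.74 (edgeR adjusted p = 0.0372), and with the hepatocyte covariate -0.24 (edgeR adjusted p = 0.774). Of 22 alternatives, DESeq2 as run here and the fit without transgenic library 3 were the 2 that called Pnpla2. The authors' deposited adjusted p, from their own DESeq2 run, was 0.0593 and did not pass the threshold. Leaving out 1 library gave an edgeR adjusted p of up to 0.204.

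Abhd5, the activator of Pnpla2, gave 22.7, 17.1, 18.3, 15.6 and 17.6 CPM in wild-type and 21.9, 21.0, 21.9, 19.3 and 22.1 CPM in transgenic libraries. Wild-type library 1 was the highest of all 10, and the other 4 wild-type libraries lay under all transgenic ones. The log2 difference was 0.22 ± 0.11 (95% interval -0.02 to 0.46, edgeR adjusted p = 0.323). The ratio of Abhd5 to Pnpla2 per kilobase did not overlap: it ran from 0.0408 to 0.0701 in wild-type and from 0.0794 to 0.124 in transgenic libraries, a mean log2 ratio higher by 0.84. Neither gene was called by edgeR on its own, and this ratio was one of 6 described. Exons of Abhd5 overlap those of A730085K08Rik on the opposite strand.

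G0s2, the inhibitor, lay lowest in CPM, at 6.07, 3.73, 2.83, 2.86 and 1.23 in wild-type and 4.39, 4.38, 3.61, 3.17 and 4.50 in transgenic libraries. The transgenic values fell within the wild-type range, and the log2 difference was 0.27 ± 0.31 (edgeR adjusted p = 0.718). It was 0.06 without wild-type library 5 and 0.56 without wild-type library 1, neither called by edgeR. The log2 ratio of G0s2 to Pnpla2 averaged -3.95 in wild-type and -2.91 in transgenic libraries, with overlap.

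The lipases of the later steps sat near no difference. Lipe ran from 17.4 to 41.1 CPM in wild-type and from 17.3 to 35.4 CPM in transgenic libraries, a log2 difference of -0.06 ± 0.25 (95% interval -0.60 to 0.47). Mgll ran from 27.7 to 50.8 and from 25.1 to 44.0 CPM, a log2 difference of -0.01 ± 0.18 (95% interval -0.40 to 0.39). Library 1 was highest for both genes in both groups. The log2 ratio of Lipe to Pnpla2 averaged -3.68 in wild-type and -3.10 in transgenic libraries, with overlap. Exons of Lipe and Mgll also overlap a gene on the opposite strand (4732471J01Rik and Gm26588).

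The members also differed in how much they varied between mice of 1 genotype. Against the 500 genes of nearest level, the SD of log2 CPM of Plin1 lay at the percentile 99.8 in wild-type and 98.8 in transgenic libraries, with 8.20-fold and 5.53-fold between the highest and lowest library. Lipe lay at 95.8 and 83.4, and G0s2 at 97.4 in wild type but at 20 in transgenic muscle. Plin3 lay near the middle, at 56.4 and 61.2, and Abhd5 at 66.2 and 4.8. With 5 libraries a group these percentiles are descriptions.

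Adipocyte transcripts varied along with Plin1. The adipocyte list (9 of 11 markers tested, among them Fabp4, Cfd and Adipoq, with no member in it) summed to 1241, 737, 459.7, 409 and 242 CPM in wild-type and 1048, 710.0, 225, 302 and 417 CPM in transgenic libraries. None of the 9 was called by edgeR or DESeq2, and none had an unadjusted edgeR p under 0.05. Library 1 was highest in both groups, as for Plin1, Lipe and Mgll. No adipocyte marker tested was at 0 in this muscle, but the markers tested are those that had passed the filter on low counts. Lep, also on the list, fell under that filter, with raw counts from 1 to 78 in a library.

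Over the 10 libraries, as deviations from the group means, log2 CPM of Plin1 followed the mean log2 CPM of the adipocyte list with Pearson's r = 0.982 (exact permutation within groups, p = 0.000208, adjusted 0.00833) and Spearman's rho = 0.961 (p = 0.000417, adjusted 0.0167). The values within groups were 0.971 and 0.997, and r was 0.958 without the 2 libraries farthest out, library 1 of each group. Lipe gave r = 0.867 (exact permutation, p = 0.00313, adjusted 0.0463) and rho = 0.807 (p = 0.0112, adjusted 0.0894), with r = 0.666 without those 2. G0s2 gave r = 0.796 (exact permutation, p = 0.00347, adjusted 0.0463) and rho = 0.888 (p = 0.00278, adjusted 0.0556), with r = 0.794 without them.

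The adjustment covers 40 relations, 10 members with each of 4 lists (adipocyte, hepatocyte, leukocyte, slow and oxidative fibre), and the other 37 had adjusted p over 0.05 by both measures. For Plin2 and Plin3 the adipocyte r was 0.519 (exact permutation, adjusted p = 0.509) and 0.209 (exact permutation, adjusted p = 0.618). Plin3 and the hepatocyte list gave r = -0.795 (exact permutation, p = 0.0192, adjusted 0.192). With the adipocyte list as a covariate, the log2 difference of Plin1 was -0.12 ± 0.14 in place of -0.10 ± 0.54, and that of Plin2 was 0.81 ± 0.15. Among the 45 pairs of members no relation passed an adjusted p of 0.05, and 3 shared the lowest (exact permutation, adjusted p = 0.0542): Plin1 with Lipe (r = 0.862), Plin4 with Pnpla2 (0.846) and Plin1 with G0s2 (0.829).

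**Figure D4:**
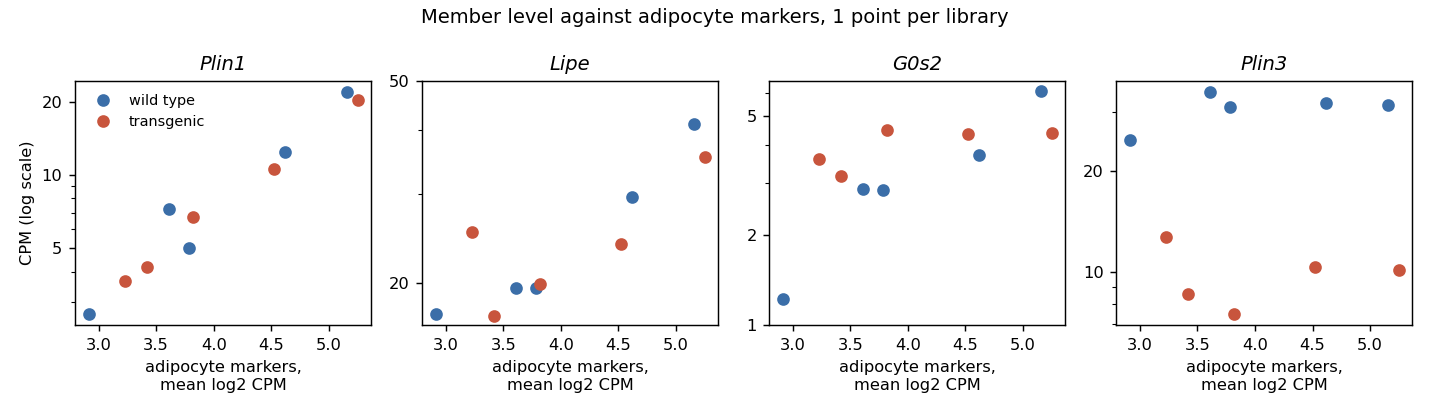
Levels of Plin1, Lipe, G0s2 and Plin3 (CPM, log axes) against the mean log2 CPM of the adipocyte markers for each of the 10 libraries, by genotype. Plin1 follows the list within both groups (r = 0.971 in wild type and 0.997 in transgenic), while Plin3 separates by genotype at every adipocyte level.

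Fibre type markers did not separate the genotypes. The slow and oxidative list (10 genes, among them Myh2 and Mb) summed to 951 to 3471 CPM in wild-type and 1077 to 2588 CPM in transgenic libraries, and none of its genes was called by edgeR or DESeq2 or had an unadjusted edgeR p under 0.05. With that list as a covariate, Plin5 was at -0.47 and Pnpla2 at -0.61, Plin2 at 0.79 and Plin3 at -1.64.

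Of 75 other tested genes of droplets, lipases, triglyceride storage, lipolytic signalling and fatty acid handling, 3 were called higher and none lower, beside 4.28% and 1.05% of all tested genes, and 18 had an unadjusted p under 0.05, beside 18.1% of all tested genes. Among 20 other droplet proteins 2 were called. Vps13a, a lipid transfer protein at membrane contacts, rose by a log2 difference of 0.82 ± 0.18 (edgeR adjusted p = 0.0177), from 60.6 ± 8.08 to 107 ± 28.0 CPM. The groups overlapped for Vps13a, with transgenic library 3 at 61.3 CPM, inside the wild-type range of 52.7 to 72.4 CPM. Hsd17b13, a liver droplet protein, rose by 2.94 ± 0.71 (edgeR adjusted p = 0.0276), from 0.390 to 0.762 CPM in wild-type libraries to 1.33 to 15.9 CPM in transgenic ones. Its top value was in transgenic library 5, which also held the most hepatocyte transcripts.

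With the hepatocyte covariate none of the 75 was called by edgeR, and 9 had an unadjusted p under 0.05. Of the PPAR targets that share known regulators with Plin2 and Plin5, Pdk4 was at -0.26 ± 0.13, Angptl4 at 0.17 ± 0.19 and Cd36 at -0.05 ± 0.18, none called.

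Counts in these small lists stand beside the same shares over all genes, 18.1% for an unadjusted edgeR p under 0.05 and 7.74% for DESeq2. None of 12 other lipases and partners was called by edgeR, 5 had an unadjusted p under 0.05, and DESeq2 called Pnpla6, Pnpla3 and Ces1g, a carboxylesterase that was under the edgeR filter. Pnpla6, a lysophospholipase, was at 0.42 ± 0.12 (edgeR adjusted p = 0.0631) and Pnpla3, a close relative of Pnpla2, at -0.82 ± 0.24 (edgeR adjusted p = 0.0748). They were the 2 of the 12 that did not overlap between groups in CPM, beside 8.04% of all tested genes. Pnpla3 was at 10.55 CPM in wild-type library 1 and at 4.38 to 5.25 CPM in the other wild-type libraries. Of 9 storage enzymes edgeR called none, 3 had an unadjusted p under 0.05 and DESeq2 called 3 higher, with Lpin3 at 0.52 ± 0.15 (edgeR adjusted p = 0.0722) and Agpat2 at 0.79 ± 0.24 (edgeR adjusted p = 0.0803). Agpat2 makes phosphatidic acid and Lpin3, a lipin, turns it into diglyceride. Of 17 lipolytic signalling genes edgeR called none and 1 had an unadjusted p under 0.05, Prkaca, the catalytic subunit of protein kinase A, at -0.42 ± 0.16 (edgeR adjusted p = 0.193). DESeq2 called 1 gene of that list, Adrb1.

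Adrb1, the beta-1 adrenergic receptor upstream of protein kinase A, fell under the filter on low counts and is named after its values were seen. Its raw counts were 2, 4, 1, 0 and 1 in wild-type and 10, 10, 13, 16 and 19 in transgenic libraries, and the groups did not overlap. Without the filter its log2 difference was 2.65 ± 0.57 (edgeR adjusted p = 0.0181), and DESeq2 called it with an adjusted p of 0.00246. Adrb3, the beta-3 receptor of adipocytes, was at 0.79 ± 0.46 (edgeR adjusted p = 0.403).

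Plin3, Plin4 and Plin5 lie on chromosome 17 (GENCODE M21 on GRCm38), all on the minus strand: Plin4 from 56100591 to 56109803, Plin5 from 56111601 to 56117596 and Plin3 from 56277476 to 56292873. Between Plin4 and Plin5 lie 1797 bases, while the starts of Plin5 and Plin3 are 175.3 kb apart. Within 250 kb of the Plin3 start 15 genes were tested, and edgeR called Plin3 alone. The other 14 had a median log2 difference of 0.08. The tested genes next to Plin3 were Ticam1, an adaptor of Toll-like receptors (0.08 ± 0.21), and Uhrf1, a reader of DNA methylation (0.12 ± 0.29). The remaining members are spread out: Plin1 at chromosome 7 from 79720218 to 79732903, Plin2 at chromosome 4 from 86648386 to 86670060, Pnpla2 at chromosome 7 from 141455198 to 141460743, Lipe at chromosome 7 from 25379527 to 25398710, G0s2 at chromosome 1 from 193272161 to 193273217, Abhd5 at chromosome 9 from 122351608 to 122381524 and Mgll at chromosome 6 from 88724412 to 88828360.

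**Figure D5:**
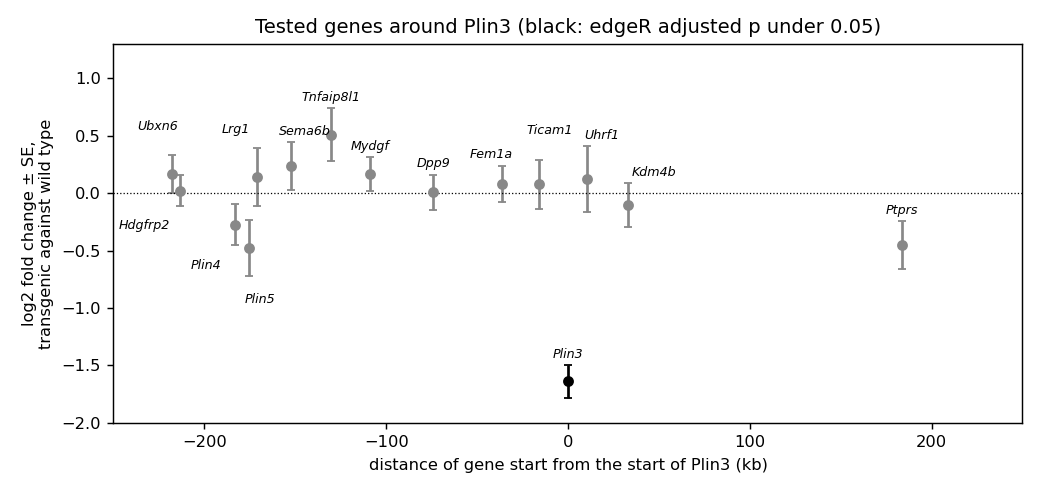
Log2 difference of transgenic minus wild type (bars: SE) of the 15 tested genes within 250 kb of the Plin3 start, by distance of their starts in kb. Plin3 lies at -1.64 and Plin5 (-0.48) and Ptprs (-0.45) are the next lowest, neither called.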

How the data were processed

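RNA of biceps femoris was sequenced from 5 wild-type and 5 transgenic mice. HTSeq 0.6.1, SAMtools 1.2, Bowtie2 2.2.6, TopHat2 2.1, DESeq2 1.10 and the build GRCm38.p4 are named per the submitters' processing notes, and the sources used here do not give counting options, strand or gene models. The deposited table holds raw counts per gene, not normalized, 13530367 to 19047834 per library. Per the file headers it also holds the authors' mean signal per gene, log2 fold change with its error, Wald statistic (a score) and p-values, the authors' own comparison, of which the adjusted p-values served as an alternative. Columns match a genotype and no single mouse. The 20 pairs of libraries within a group differed beyond counting noise (lowest chi-square per degree of freedom 17.5).

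Low genes were dropped by filterByExpr, TMM factors were computed, and transgenic was tested against wild type by the quasi-likelihood test of edgeR 4.0.16 without covariates (R 4.3.3), with Benjamini-Hochberg adjustment over 13338 genes and a threshold of 0.05. For log2 CPM the prior count was 2. On simulated counts of these 13338 genes 24% of the genes given a 1.5-fold change were called, 70% of those given 2-fold, 92% of those given 4-fold and 96% of those given 8-fold. There were 10 false calls. The counts were drawn a single time, with 50 genes per fold. Each gene was given the spread usual for its level, and the variation of marker lists between libraries was not simulated. The rates are thus not those of genes that vary more than usual for their level, such as Plin1. P-values set the difference between genotypes against the spread between these mice. Exon lengths and positions came from GENCODE M21 and promoters from RefSeq.

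Members and lists were chosen with earlier results of these data known. Named were all members, of each pathway list up to 4 called genes (else the 2 with the smallest p), the most abundant genes of marker lists, the 3 genes most like each member, and the genes beside Plin3; PPAR targets and adrenergic receptors were added after their values were seen. Gpat3, Gpat4 and Cideb were not matched and are not analysed here. Some genes of the lists are counted but not reported here by name. Alternatives were other normalizations, filters, DESeq2 1.42.0, left-out libraries and marker covariates. The labels number no replicates across genotypes, so no pairing was fitted.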

Additional observations from a re-analysis of the deposited data

How the results depend on the processing

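The call of Plin3 held in 22 of 22 alternatives (log2 difference -1.74 to -1.17) and that of Plin2 in 20 of 22 (0.67 to 0.90). Against 711 genes called, leaving out 1 library gave 450 (without wild-type library 3) to 1116 (without transgenic library 3), the hepatocyte covariate 73, DESeq2 1230 and the authors' deposited adjusted p-values 1158. Against 2 members called, leaving out 1 library gave 1 to 4 and the hepatocyte covariate 1. Against 3 other genes of the pathway, leaving out 1 library gave 0 (17 with an unadjusted edgeR p under 0.05, without wild-type library 3) to 8, the hepatocyte covariate 0, leaving out transgenic libraries 1 and 2 gave 5, the adipocyte covariate 7, DESeq2 11 and the authors' deposited adjusted p-values 9. The covariates cost a degree of freedom and the hepatocyte list separates the groups; the cause of the other changes was not tested. Plin1, Lipe and Mgll, never called, changed sign in 6, 5 and 6 of the 22. Without division by exon length Plin4 held 85.1% of the perilipin level in both groups, Plin5 4.45% in wild-type and 3.76% in transgenic libraries, and Plin2 3.63% and 7.36%. Depth limits G0s2 most, with 17 counts in its lowest library. No paired analysis was possible because the groups share no replicate numbers in the labels.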

Other observations

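For each member, the 3 non-members whose log2 CPM, as deviations from the group means over the 10 libraries, had the highest Pearson's r were taken from 12168 tested genes with a mean count of at least 20. The values are descriptions without a test, since the highest of many r over 10 libraries is high by selection. For Plin1 they were Slc7a10 (0.988), an amino acid transporter of adipocytes, Cidec (0.982), a droplet fusion protein of fat cells that is also in the adipocyte list, and Ces1d (0.967), a carboxylesterase. For Plin2 they were Rbp7 (0.964), a retinol-binding protein, Eci1 (0.959), an enzyme of mitochondrial fatty acid oxidation, and Tmem120a (0.947). For Plin3 they were Rpsa (0.963), a ribosomal protein, Gnai2 (0.947) and Abhd14a (0.943). None of these 9 genes was called between genotypes by edgeR.

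Among the lipolytic genes, G0s2 had Bckdhb (0.966), Adrb3 (0.960) and Rbbp9 (0.959), Lipe had Casp6 (0.972), Adcyap1r1 (0.969) and Aoc3 (0.943), and Pnpla2 had Ddx19a (0.961), Smagp (0.955) and Atp13a2 (0.947). For Abhd5 they were Wdr34 (0.928), Idnk (0.914) and Cd300lg (0.911), and for Mgll C330006A16Rik (0.913), Mccc2 (0.913) and Nr1h3 (0.906). Plin4 had Mst1r (0.974), Pak4 (0.947) and Klhl38 (0.935), and Plin5 had Slc12a4 (0.968), Adck3 (0.963) and Arap1 (0.954).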
